A study of Mus musculus with 17 samples.

Results

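The genes described here were 8 members of the fibroblast growth factor (FGF) and hepatocyte growth factor (HGF) signalling systems: the ligands Fgf2, Fgf7, Fgf10, Fgf18 and Hgf and the receptors Fgfr1, Fgfr2 and Met. They were taken by gene name from the 55421 genes of the count table, and all 8 names were found. Lung fibroblasts were cultured to passage 1 from 17 Ephb4f/f;Col1a2-CreERT2 mice, 1 RNA library per mouse. All mice carried floxed Ephb4 and a tamoxifen-inducible Cre under the Col1a2 promoter. At 4 weeks of age, Ephb4 CKO mice received daily doses of 1 mg of 4-hydroxytamoxifen over 5 days and Ephb4 control mice received corn oil. At 6 weeks they received bleomycin (1.2 U/kg, into the trachea), which injures the lung, or PBS, and the lungs were taken 14 days later. The groups were Ephb4 control PBS (4 mice), Ephb4 control bleomycin (4), Ephb4 CKO PBS (5) and Ephb4 CKO bleomycin (4). Tamoxifen exposure and the loss of Ephb4 cannot be told apart in this design, since no control mouse received the drug.

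FGFs are secreted ligands that bind receptor tyrosine kinases together with heparan sulphate, and the activated receptors signal through adaptor proteins to the ERK and AKT pathways. In the lung, mesenchymal cells make Fgf7 and Fgf10, which act on epithelial cells through the epithelial splice form of Fgfr2, whereas Fgf2 acts on many cells through Fgfr1. Hgf is likewise a mesenchymal ligand for the receptor Met, which is known from epithelial cells and is also found on other cell types.

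Levels were expressed as CPM, read counts divided by the library total (scaled by the TMM method) and expressed on a common scale. The total count ranged from 66540022 to 120554468 per library. Ephb4 itself ranged from 13.1 to 65.1 CPM in the control bleomycin mice and from 4.93 to 14.0 CPM in the CKO bleomycin mice. These ranges overlapped, and the adjusted p was 0.220 in edgeR's quasi-likelihood test and 0.0919 in DESeq2 without a batch term. After PBS, Ephb4 ranged from 2.32 to 33.4 CPM in the control mice and from 4.01 to 23.6 CPM in the CKO mice. The CKO PBS range thus lay within the control PBS range (log2 fold change -0.73, SE 0.72, edgeR unadjusted p 0.329). Neither comparison gave an adjusted p under 0.05 for Ephb4, and in edgeR neither gave one for any of the 10481 genes tested. The label of primary fibroblasts was checked against markers, and macrophage genes exceeded fibroblast genes in most libraries. Col1a1, a fibroblast collagen gene, ranged from 0.360 to 2239 CPM (median 34.9), and Lyz2, a macrophage lysozyme gene, from 863 to 36874 CPM (median 18476). The cultures are therefore called lung cultures below. The Xist and Y-linked counts went against the labelled sex in 3 libraries (control bleomycin mouse 2 and CKO bleomycin mice 1 and 2), and whether these libraries were exchanged with others was not tested, so their group is in doubt. In bulk RNA, fewer cells of a type and less RNA per cell cannot be told apart.

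The members lay on 8 chromosomes of GRCm38 in the GENCODE M21 annotation, and all were protein coding. Fgf2 (ENSMUSG00000037225) covered bases 37348346 to 37410108 of chromosome 3 and Met (ENSMUSG00000009376) bases 17463800 to 17573980 of chromosome 6, both forward. Fgfr1 (ENSMUSG00000031565) covered bases 25513654 to 25575718 of chromosome 8, also forward. Fgf7 (ENSMUSG00000027208) covered bases 126034658 to 126091185 of chromosome 2 and Hgf (ENSMUSG00000028864) bases 16553495 to 16620152 of chromosome 5, both forward. Fgfr2, Fgf10 and Fgf18 lay on chromosomes 7, 13 and 11. Fgf2 shared 640 exon bases with Nudt6 on the opposite strand, but Nudt6 stayed between 0.435 and 2.90 CPM. Fgfr2 shared 314 exon bases on the same strand with Ctbp2 (26.8 to 74.2 CPM), so the split of coverage between these genes by the transcript assembler is a limit on the Fgfr2 counts.

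Upstream sequences are shown for Fgf7 and Met, and for Hgf, the ligand of Met. The levels of Fgf7 and Met had a Spearman rho of -0.59 over the 17 libraries. It was -0.39 over the 13 libraries without the control bleomycin mice. RefSeq promoter windows on GRCm38.p6 were available for 7 of the 8 members, and each stretch below ends at the base before the first annotated GENCODE M21 exon. The stretches are chr2:126034408-126034657 for Fgf7, chr5:16553245-16553494 for Hgf and chr6:17463707-17463799 for Met, all on the forward strand. Capitals mark matches to the 4 motifs searched on both strands (TATAAA, known as the TATA box, GGGCGG, known as the GC box, CCAAT, and the AP-1 element TGANTCA).
Fgf7: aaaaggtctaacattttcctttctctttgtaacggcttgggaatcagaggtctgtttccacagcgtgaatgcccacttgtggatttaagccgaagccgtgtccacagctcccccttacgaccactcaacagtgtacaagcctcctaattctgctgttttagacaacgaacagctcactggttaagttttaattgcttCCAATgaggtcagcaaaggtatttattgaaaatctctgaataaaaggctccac
Hgf: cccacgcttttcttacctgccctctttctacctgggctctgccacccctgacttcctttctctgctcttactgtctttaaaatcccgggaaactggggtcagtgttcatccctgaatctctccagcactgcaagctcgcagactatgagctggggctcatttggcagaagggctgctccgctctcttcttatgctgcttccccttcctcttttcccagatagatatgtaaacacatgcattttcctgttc
Met: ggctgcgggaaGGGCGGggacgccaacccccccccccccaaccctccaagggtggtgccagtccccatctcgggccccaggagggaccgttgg
The Fgf7 stretch held 1 CCAAT, starting 53 bases before the first exon, as did 33.8% of all 32851 windows over the same 250 bases. The Met stretch of 93 bases held 1 GGGCGG, starting 82 bases before the first exon, and 9.67% of all windows held one in their first 93 bases. The windows behind this share were not cut at a first exon, so their 93 bases can lie at another distance from it. The Hgf stretch held none of the 4 motifs. Over the 250 bases, TATAAA was present in 12.4%, GGGCGG in 32.7% and TGANTCA in 6.75% of the windows. Each match is a description of the letters only.

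Testing was limited by a filter that kept genes above 10 CPM in at least 2 libraries. Fgf2, Fgf7, Fgfr1, Fgfr2, Hgf and Met passed (6 of the 8 members, among 10481 genes kept). Fgf10 and Fgf18 did not pass, and their highest levels were 8.30 and 2.79 CPM. They are described by their levels and by a fit with a wider filter.

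Fgf2, a ligand and mitogen of fibroblasts and endothelial cells, had the widest range of levels among the ligands. Its level in the control bleomycin mice was 128, 43.0, 74.3 and 107 CPM. The CKO bleomycin mice had 15.8, 32.7, 7.89 and 0.341 CPM, all below the lowest control bleomycin mouse. The control PBS mice had 14.2, 0.0225, 172 and 0.391 CPM, so that 1 mouse was above all bleomycin mice and 1, with 2 counts, was at the detection floor of 3 counts. The CKO PBS mice had 0.256, 2.43, 44.8, 3.44 and 2.23 CPM, with mouse 3 alone above 10 CPM.

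Fgf7, an epithelial growth factor made by mesenchymal cells, was even in the control bleomycin mice, at 22.1, 29.9, 23.4 and 22.9 CPM. It spread over 0.120 to 25.2 CPM (median 1.71) in the control PBS mice and over 0.271 to 11.6 CPM (median 1.26) in the CKO PBS mice. The CKO bleomycin mice had 10.3, 46.0, 2.34 and 0.352 CPM, a spread that lay on both sides of the control bleomycin range.

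Fgf10, the ligand that drives branching of the lung epithelium in development, was low throughout. Its highest levels were 5.17 CPM in control bleomycin mouse 2 and 4.71 and 8.30 CPM in CKO bleomycin mice 1 and 2, which were the 3 libraries whose sex genes went against their labels. The other 14 libraries did not exceed 3.75 CPM. Fgf18, a ligand of lung mesenchyme and cartilage, ranged from 0.222 to 2.79 CPM in the control bleomycin mice and was listed at 0 in 1 library of each of the other 3 groups.

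Hgf overlapped between all 4 groups. It was 6.11, 4.43, 17.8 and 2.48 CPM in the control PBS mice and 4.68, 28.5, 7.08 and 5.99 CPM in the control bleomycin mice. The CKO PBS mice averaged 7.72 ± 2.39 CPM (SD, n = 5), and the CKO bleomycin mice had 18.1, 39.3, 5.47 and 2.65 CPM. The highest values were in control PBS mouse 3, control bleomycin mouse 2 and CKO bleomycin mice 1 and 2.

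Of the receptors, Fgfr1 was 187, 122, 59.9 and 68.1 CPM in the control bleomycin mice. In the CKO bleomycin mice it was 34.5, 58.5, 9.40 and 7.40 CPM, and the highest of these lay just below the lowest control bleomycin mouse. The control PBS mice had 14.3, 5.21, 114 and 7.77 CPM, and the CKO PBS mice ranged from 5.53 to 43.4 CPM (median 25.7). Fgfr2, whose splice forms the gene counts do not separate, ranged from 7.85 to 20.3 CPM in the control bleomycin mice and from 0.536 to 11.6 CPM elsewhere, with overlap between all groups.

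Met, the receptor of Hgf, had its lowest group median in the control bleomycin mice, where Fgf2 and Fgfr1 had their highest. Its level was 24.4, 44.3, 84.6 and 49.0 CPM in the control bleomycin mice. In the CKO bleomycin mice it was 182, 393, 156 and 546 CPM, every value above the highest control bleomycin mouse. The control PBS mice had 81.5, 162, 74.8 and 588 CPM, and the CKO PBS mice 1186, 110, 117, 790 and 430 CPM. Met was thus above 10 CPM in all 17 libraries, and its lowest 2 groups by median were control bleomycin (46.6 CPM) and control PBS (122 CPM).

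**Figure D1:**
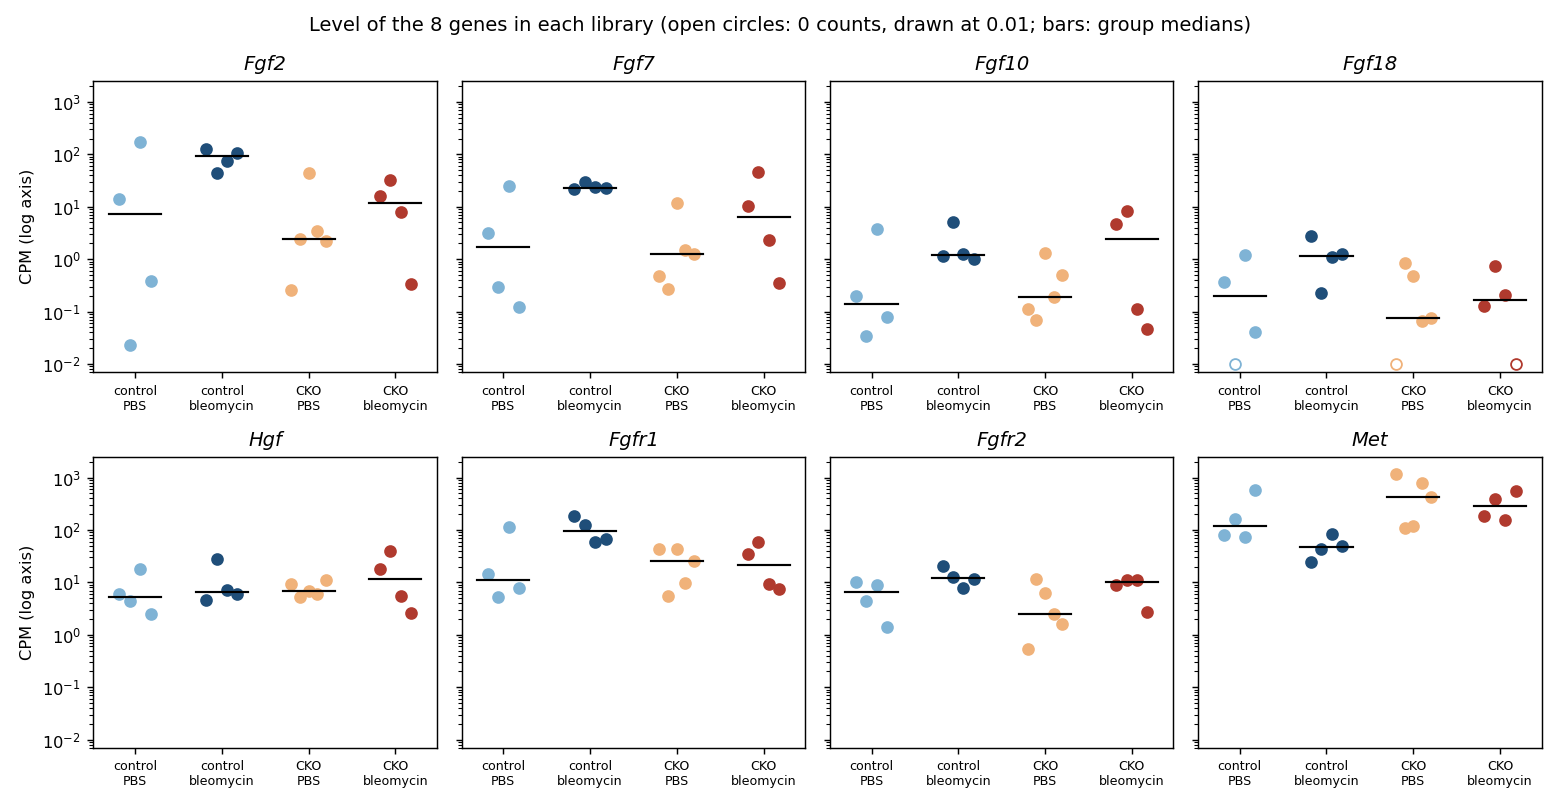
CPM (log axis) of each of the 8 genes in every library, by group, with a bar at the group median and open circles at the foot of the axis for libraries with 0 counts. The 4 control bleomycin mice lie above all CKO bleomycin mice for Fgf2 and Fgfr1 and below all of them for Met.

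Levels were compared between genes after division by exon length (CPM per kilobase of the union of annotated exons). By median, Met ranked highest of the 8 genes in 3 groups, at 15.8 CPM per kilobase in control PBS, 56.0 in CKO PBS and 37.4 in CKO bleomycin mice. In the control bleomycin group it ranked 4th at 6.07, after Fgf2 (13.4), Fgfr1 (9.62) and Fgf7 (7.12), and the ranges of these 4 genes overlapped. Met was the highest of the 8 genes in 5 of 5 CKO PBS libraries, 4 of 4 CKO bleomycin libraries, 3 of 4 control PBS libraries and 1 of 4 control bleomycin libraries.

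Within libraries, Fgfr1 per kilobase exceeded Fgfr2 in all 4 control PBS and all 4 control bleomycin mice, and in 4 of 5 CKO PBS and 3 of 4 CKO bleomycin mice. The Fgfr1 to Fgfr2 ratio was 6.10 to 10.1 in the control bleomycin mice and 0.867 to 5.53 in the CKO bleomycin mice. Met exceeded its ligand Hgf per kilobase in all 17 libraries, by a ratio of 1.45 to 11.2 in the control bleomycin mice and 9.35 to 193 in the CKO bleomycin mice. Fgf10 ranked last of the 8 by median in 3 groups and next to last in the CKO bleomycin group, where Fgf18 was last.

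**Figure D2:**
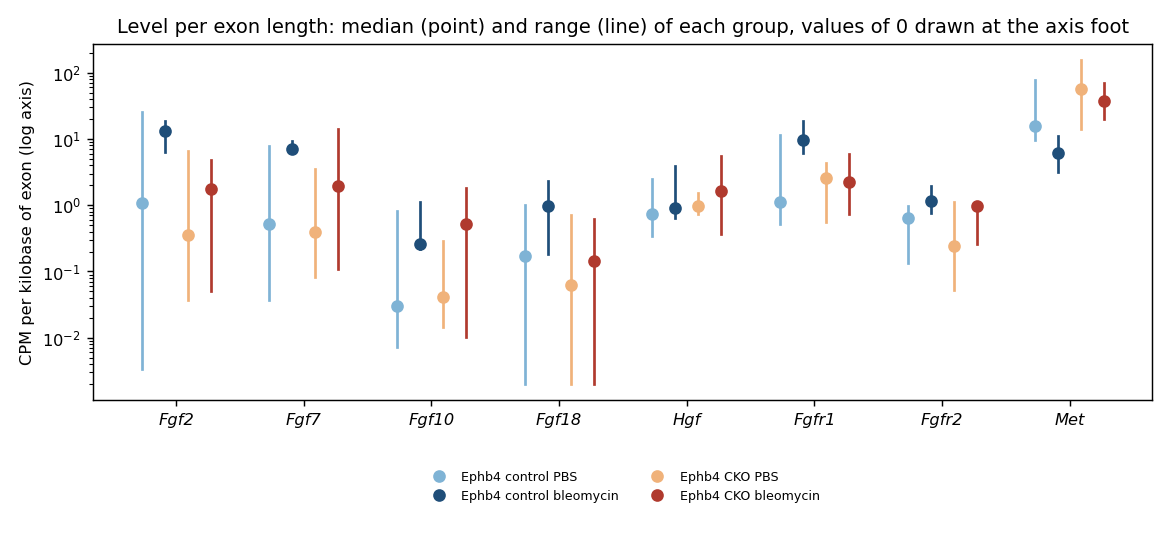
CPM per kilobase of exon (log axis) of the 8 genes, with a point at each group's median and a line over its range; values of 0 are drawn at the foot of the axis. Met stands highest in 3 groups, and Fgf2, Fgfr1, Fgf7 and Met lie close together in the control bleomycin mice.

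The effect of bleomycin was first compared in Ephb4 control mice. No member passed an adjusted p of 0.05 in edgeR's quasi-likelihood test, where the share of all genes called was also 0%. At an unadjusted p under 0.05, 1 of the 6 members was lower (Met, against 7.98% of all genes lower) and none was higher (against 6.28%). Met differed by a log2 fold change of -2.16 (SE 0.83), a 4.48-fold lower fitted level after bleomycin, with an edgeR adjusted p of 0.320. The 5 other members had positive log2 fold changes, from 0.59 for Hgf (SE 0.79) and 0.92 for Fgf2 (SE 1.74) through 1.09 for Fgfr2 (SE 0.79) and 1.62 for Fgfr1 (SE 0.97) to 1.77 for Fgf7 (SE 1.53). Their edgeR adjusted p ran from 0.433 to 0.814. The median over the 6 was 1.01, beside -0.06 over all genes tested. All members overlapped between these groups, as did all but 8.91% of the genes. DESeq2 called none of the members at an adjusted p of 0.05, against 1.60% of all genes without a batch term and 2.26% with the 2 column runs as a covariate. limma voom called none and had 5 of 6 at an unadjusted p under 0.05, against 16.9% of all genes.

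These values moved when single mice were left out and when a marker score was added to the fit. Control PBS mouse 3 had the highest Fgf2, Fgf7 and Fgfr1 of its group, and without it the log2 fold changes were 4.21 for Fgf2, 4.42 for Fgf7 and 3.62 for Fgfr1 (edgeR adjusted p 0.0682 for Fgfr1). The Met value was -1.07 without control PBS mouse 4, which had the highest Met of its group, and -0.71 among the mice of number series 12, which held 1 control PBS mouse. The Hgf value turned to -0.38 without control bleomycin mouse 2. With the fibroblast marker score as a covariate, Fgf2 stood at -1.35, Fgf7 at -0.93, Fgfr1 at -0.11, Hgf at -1.22 and Met at -0.42. That score was 8.10 to 9.01 in the control bleomycin mice and 0.18 to 8.05 in the control PBS mice. Since these ranges do not overlap, the fit cannot tell the score and the group apart.

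Ephb4 CKO and control mice were then compared after bleomycin, which asks whether the lung cultures of injured mice differ with Ephb4. This comparison and the previous one share the 4 control bleomycin mice. Met was 6.31-fold higher in the CKO mice by the fit (log2 fold change 2.66, SE 0.85), with an adjusted p of 0.207 in edgeR's quasi-likelihood test. Fgf2 had a log2 fold change of -2.64 (SE 1.84, edgeR adjusted p 0.393) and Fgfr1 of -1.99 (SE 0.98, edgeR adjusted p 0.256). Fgf7 (-0.73, SE 1.49), Fgfr2 (-0.62, SE 0.78) and Hgf (0.50, SE 0.79) were within 1 SE of no difference, although Fgf7 was -2.51 without CKO bleomycin mouse 2.

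The number of members called depended on the test. By edgeR it was 0 of 6 at an adjusted p of 0.05, as for all genes (0%). At an unadjusted p under 0.05 it was 1 of 6, Met, against 20.2% of all genes in either direction. The groups did not overlap for 3 of 6 members, Met (higher in CKO mice), Fgf2 and Fgfr1 (both lower), against 23.1% of all genes in either direction. DESeq2 called 1 member, Met, with an adjusted p of 0.0274 without a batch term (3.84% of all genes called) and of 0.0225 with the column runs (3.79%). limma voom without weights called none and had 4 of 6 at an unadjusted p under 0.05, against 23.0% of all genes. With sample quality weights voom called 4 (Fgf2, Fgf7, Fgfr1 and Met) where it called 44.4% of all genes. The median log2 fold change over the 6 members was -0.68, beside 0.01 over all genes.

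The Met difference kept its direction under all 35 alternatives. It lay between 1.51 with the fibroblast marker score as a covariate and 3.02 without control bleomycin mouse 3. Since the groups did not overlap for Met, leaving out single mice could not reverse its direction. All 4 control bleomycin mice came from number series 12 of the mouse names, with 2 of the 4 CKO bleomycin mice. Among series 12 alone the log2 fold changes were 2.55 for Met, -1.21 for Fgfr1 and 0.23 for Fgf7. When the 3 libraries with a sex mismatch were left out, Met stood at 2.70, Fgf2 at -4.69, Fgf7 at -4.12 and Fgfr1 at -3.68, and edgeR called no member at an adjusted p of 0.05. The 2 CKO bleomycin mice left were both of series 11 and the control bleomycin mice all of series 12, so series and genotype cannot be told apart there.

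After PBS, Ephb4 CKO and control mice overlapped for every member, as did all but 0.248% of the genes tested. No member passed an adjusted p of 0.05 in edgeR's quasi-likelihood test (0% of all genes) or an unadjusted p under 0.05 (1.99% of all genes). The fitted log2 fold changes ran from -2.13 for Fgf2 (SE 1.67) to 1.22 for Met (SE 0.78). The Fgf2 value rested on single mice, since it was 1.13 without control PBS mouse 3 and -4.51 without CKO PBS mouse 3. Met was 0.68 without CKO PBS mouse 1 and 2.31 without control PBS mouse 4.

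Bleomycin and PBS were also compared within Ephb4 CKO mice. No member passed the adjusted p of 0.05 in edgeR's quasi-likelihood test (0% of all genes) or an unadjusted p under 0.05 (0.964% of all genes), and all overlapped, as did all but 0.0859% of the genes. The log2 fold changes ran from -0.72 for Met (SE 0.76) to 2.28 for Fgf7 (SE 1.44). The Met value was -0.18 without CKO PBS mouse 1. The Fgf7 value was 0.51 without CKO bleomycin mouse 2 and -1.20 once the 3 libraries with a sex mismatch were left out. Whether the effect of bleomycin differed between genotypes was tested with an interaction term, and no member was called (edgeR adjusted p, 0% of all genes; unadjusted p under 0.05, none against 3.46%). The interaction ran from -1.51 for Fgfr1 (SE 1.32) to 1.44 for Met (SE 1.10), both with an edgeR adjusted p of 0.916. It was -3.48 for Fgfr1 without control PBS mouse 3 and 0.35 for Met without control PBS mouse 4.

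**Figure D3:**
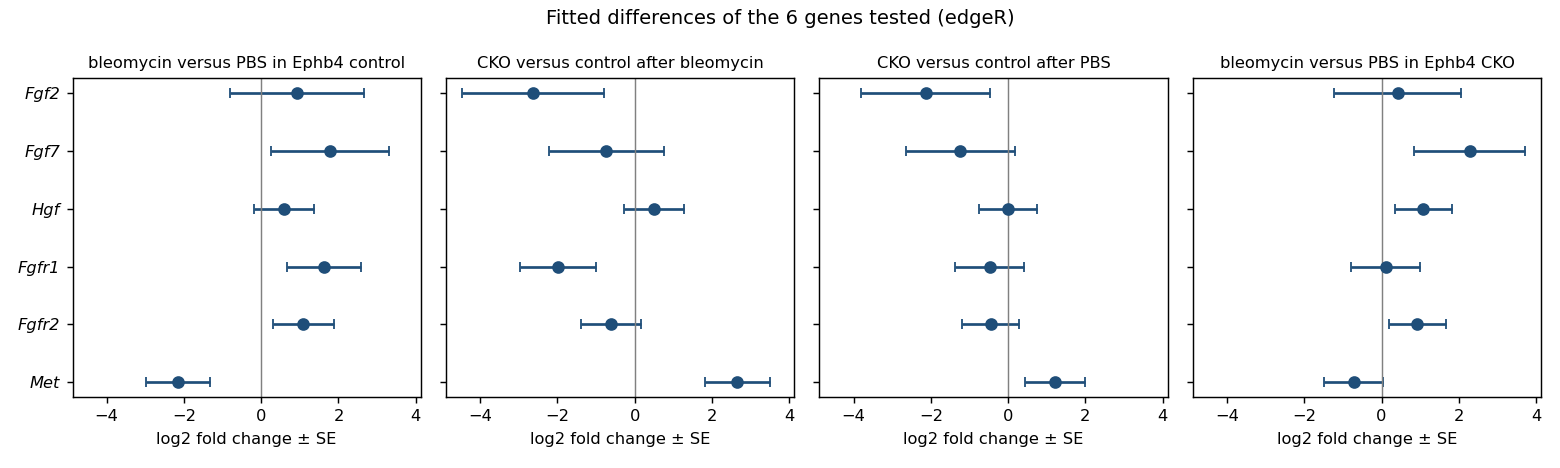
Fitted log2 fold change with its standard error for the 6 genes tested, in 4 comparisons. Met lies on the opposite side of 0 from Fgf2, Fgf7, Fgfr1 and Fgfr2 in every panel, and its values in the control mice given bleomycin are -2.16 against PBS and, for CKO against control, 2.66.

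The 2 low ligands were fitted with a wider filter (at least 10 counts in at least 2 libraries, 22679 genes). Fgf10 had a log2 fold change of 2.94 (SE 1.47) for bleomycin versus PBS in the CKO mice and 0.61 (SE 1.49) for CKO versus control after bleomycin. The first value came with 4.71 and 8.30 CPM in CKO bleomycin mice 1 and 2, both with a sex mismatch, whereas mice 3 and 4 had 0.111 and 0.0470 CPM. Mice 1 and 2 also had higher fibroblast marker scores (4.52 and 6.95) than mice 3 and 4 (3.81 and 0.72). Over the 17 libraries Fgf10 had a Spearman rho of 0.81 with that score. The part of either feature was not tested. Fgf18 had a log2 fold change of -2.32 (SE 1.56) for CKO versus control after bleomycin and 1.75 (SE 1.53) for bleomycin versus PBS in the control mice. No adjusted p from this edgeR fit was below 0.465 for either gene.

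The members moved with markers of the cell types in the cultures. The fibroblast list held 14 genes, of which 12 passed the filter, and its score was their mean log2 CPM. The score was 8.10 to 9.01 in the control bleomycin mice, 0.72 to 6.95 in the CKO bleomycin mice, 0.18 to 8.05 in the control PBS mice and 1.24 to 6.22 in the CKO PBS mice. The summed level of the list was 7315 to 14235 CPM in the control bleomycin mice against 48.8 to 2233 CPM in the CKO bleomycin mice. It was 28.2 to 8920 CPM in the control PBS mice and 67.0 to 2304 CPM in the CKO PBS mice. The macrophage list (19 of 19 genes kept) summed to 1210 to 21178 CPM in the control bleomycin mice and 23991 to 43686 CPM in the CKO bleomycin mice. It summed to 10363 to 45580 CPM in the control PBS mice and 22294 to 43439 CPM in the CKO PBS mice. Neither Col1a1 nor Lyz2 was at 0 in any library. The epithelial list (9 of 12 genes kept) summed to 202 to 1228 CPM in the control bleomycin mice and 32.4 to 1460 CPM in the CKO bleomycin mice, and Met had a rho of -0.45 and an r of -0.49 with its score over the 17 libraries.

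Over the 17 libraries, which share their groups and hence are not independent points, Fgf7 had a Spearman rho of 0.91 and a Pearson r of 0.94 with the fibroblast score. Fgfr1 (rho 0.91, r 0.92) and Fgf2 (rho 0.86, r 0.88) were close to it, Fgfr2 (0.67, 0.62) and Hgf (0.54, 0.56) lower. Met ran the other way (rho -0.76, r -0.71) and ran with the macrophage score (rho 0.70, r 0.62). Other scores were as close. With the smooth muscle score (5 of 5 genes kept), Met had a rho of -0.81 and an r of -0.77, Fgf2 of 0.88 and 0.90, Fgf18 of 0.89 and 0.87 and Fgfr2 of 0.78 and 0.77. That score was 7.62 to 8.17 in the control bleomycin mice and 0.95 to 6.90 in the CKO bleomycin mice (summed level 2703 to 3892 and 23.8 to 1866 CPM). It was -0.08 to 5.40 in the control PBS mice and 0.83 to 4.43 in the CKO PBS mice (7.68 to 660.2 and 35.3 to 490.4 CPM). With the neutrophil score, which rested on 1 of 5 genes, Met had a rho of 0.70 and an r of 0.75. Without the control bleomycin mice (13 libraries), Fgf7 kept a rho of 0.93 and an r of 0.94 with the fibroblast score, Fgf2 of 0.81 and 0.85 and Fgfr1 of 0.82 and 0.88, whereas Met had -0.52 and -0.45. Hgf then had 0.83 and 0.81, above Fgfr2 with 0.43 and 0.48. Without the 2 libraries farthest from the median fibroblast score, r with that score was 0.94 for Fgf7 and -0.61 for Met. Over the 13 libraries, Met had 0.53 and 0.48 with the macrophage score. With the smooth muscle score Met then had -0.63 and -0.56, Fgf2 0.84 and 0.87, Fgf18 0.86 and 0.88 and Fgfr2 0.69 and 0.73. The part of the marker scores in the group differences was not tested. In a fit with a score as covariate, no member was called in any comparison.

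With the fibroblast score as a covariate, the log2 fold change of CKO versus control after bleomycin was 1.51 for Met, and it turned to 0.98 for Fgf2, 2.01 for Fgf7, 0.03 for Fgfr1 and 0.09 for Fgfr2. With the macrophage score it was 2.06 for Met and -1.21 for Fgfr1, and it turned to 0.16 for Fgfr2. The macrophage score was 3.70 to 8.06 in the control bleomycin mice and 8.15 to 8.71 in the CKO bleomycin mice. Neither score overlapped between these groups, so these fits cannot tell the score and the group apart.

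**Figure D4:**
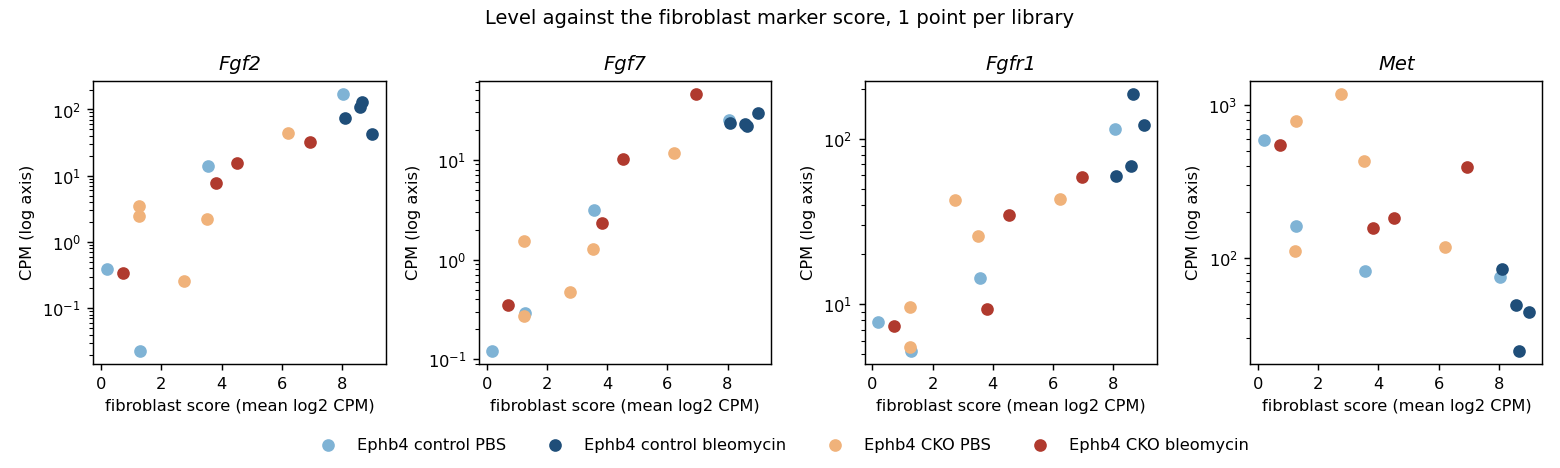
CPM (log axis) of Fgf2, Fgf7, Fgfr1 and Met against the fibroblast marker score (mean log2 CPM), 1 point per library, coloured by group. The 4 control bleomycin libraries sit at scores of 8.10 to 9.01 with control PBS mouse 3 beside them at 8.05, and the FGF genes climb with the score while Met declines.

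Within groups the relation held for some genes and groups. In the control PBS, CKO PBS and CKO bleomycin groups, the mouse with the highest fibroblast score (mice 3, 3 and 2) also had the highest Fgf2, Fgf7, Fgf10 and Fgfr1 of its group. Met was the lowest of 4 in that control PBS mouse, 4th of 5 in that CKO PBS mouse, and 2nd of 4 in that CKO bleomycin mouse. In control bleomycin mice, the mouse with the highest score (mouse 2) had the highest Fgf7, Fgf10 and Hgf but the lowest Fgf2 and Fgf18.

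Among the members, the levels of Fgf2 and Fgf7 (Spearman rho 0.85, Pearson r 0.92 over 17 libraries), Fgf2 and Fgfr1 (0.84, 0.78) and Fgf7 and Fgf10 (0.91, 0.91) ran together. Met ran against Fgfr2 (-0.83, -0.85), Fgf2 (-0.76, -0.69) and Fgfr1 (-0.59, -0.51), and had little relation to its ligand Hgf (-0.10, -0.11). Without the control bleomycin mice (13 libraries), Met had -0.74 and -0.82 with Fgfr2 and -0.59 and -0.53 with Fgf2. With Fgfr1 it then had -0.12 and -0.10. The genes most like Fgf2 over the 17 libraries by Spearman rho were Ednra (0.97), Tnc (0.97) and Npr3 (0.97). Those most like Fgf7 were Adamts9 (0.96), Tgfbr3 (0.96) and Dclk1 (0.95), and those most like Fgfr1 were Antxr1 (0.97), Col5a1 (0.97) and Bmper (0.97). Fgfr2 was most like Cavin3 (0.93), Crip2 (0.90) and Ilk (0.88), and Hgf most like Cpeb2 (0.90), Kdm3a (0.85) and Rasgrp3 (0.81). For these 5 members, the genes named were the highest 3 among the other genes that passed the filter, and they carry no test.

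The rest of the pathway was covered by lists of other genes, of which 58 were in the table and 25 passed the filter. None passed an adjusted p of 0.05 in edgeR in any of the 5 comparisons. At an unadjusted p under 0.05, CKO versus control after bleomycin had 2 higher and 2 lower, bleomycin versus PBS in control mice 1 and 1, CKO versus control after PBS 2 and 0, bleomycin versus PBS in CKO mice 0 and 2, and the interaction none. The share of all genes at that threshold was 20.2% in the first and 14.3% in the second of these, above the share of the pathway genes. It was 1.99% for CKO versus control after PBS and 0.964% for bleomycin versus PBS in CKO mice, below the share of the pathway genes. For the interaction it was 3.46%. In CKO versus control after bleomycin, DESeq2 without a batch term called 2 of the 25, Spry1 and Cbl, against 3.84% of all genes. The groups did not overlap for 4 of the 25, Cbl (higher in CKO mice), Spry1, Frs2 and Etv5 (all lower), against 23.1% of all genes. All 18 other FGF ligands failed the filter. Of these, 11 stayed under 1 CPM in every library, among them 4 with no count in any library, and the highest value was 8.05 CPM for Fgf11. Of the other FGF receptors and co-receptors 1 of 5 passed, Fgfrl1, which lacks a kinase domain, at 1.18 to 20.3 CPM. Met's relative Mst1r and its ligand Mst1 did not pass.

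Of 15 feedback inhibitors and targets of FGF and ERK signalling, 11 passed. In CKO versus control after bleomycin 10 of the 11 had negative values, with a median log2 fold change of -0.75 beside 0.01 over all genes, of which 49.3% were negative. The fibroblast and smooth muscle scores were also lower in all these CKO mice than in the control mice, and their part in this difference was not tested. Spry1, an inhibitor of receptor tyrosine kinase signalling, was 10.8 to 21.1 CPM in the control bleomycin mice and 2.93 to 7.83 CPM in the CKO bleomycin mice, without overlap. Its log2 fold change was -1.82 (SE 0.46), with an adjusted p of 0.187 in edgeR and 0.0124 in DESeq2. Dusp6, an ERK phosphatase, was 47.3 to 201 CPM in the CKO PBS mice and 47.1 to 110 CPM in the CKO bleomycin mice (log2 fold change -0.88, SE 0.36, edgeR adjusted p 1.00). Spry2, Spred1, Spred2, Dusp4, Dusp5, Etv5 and Ccnd1 reached a mean of 10 CPM in at least 1 group, and Ccnd1, a cell cycle gene, ranged from 10.8 to 141 CPM over the libraries.

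Among 8 adaptors, 7 passed. Cbl, a ubiquitin ligase that down-regulates Met and other receptors, was 23.9 to 42.8 CPM in the control bleomycin mice and 56.8 to 80.6 CPM in the CKO bleomycin mice. Its log2 fold change was 0.99 (SE 0.24), with an adjusted p of 0.187 in edgeR and 0.0124 in DESeq2. Frs2, the docking protein of FGF receptors, was 24.0 to 29.3 CPM in the control bleomycin mice and 12.4 to 23.2 CPM in the CKO bleomycin mice, without overlap (log2 fold change -0.71, SE 0.28, edgeR adjusted p 0.220). Grb2, which links receptors to Ras, had a log2 fold change of 0.97 (SE 0.44, edgeR adjusted p 0.239) in the same comparison, with overlap. Gab1, Sos1, Sos2 and Ptpn11 differed by at most 2.68-fold between any libraries.

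Of the extracellular partners, Flrt2 and Flrt3, membrane proteins that bind FGF receptors, passed. Flrt3 was 4.71 to 13.8 CPM in the control PBS mice and 2.94 to 169 CPM in the CKO PBS mice (log2 fold change 2.46, SE 0.89, edgeR adjusted p 1.00), and Flrt2 4.79 to 36.3 and 14.5 to 151 CPM (1.57, SE 0.72, edgeR adjusted p 1.00). The median of Flrt3 was 6.60 CPM in the control PBS mice and 17.5 CPM in the CKO PBS mice, whose mean was 43.8 CPM (SD 70.3). Flrt2 was 45.9 to 76.8 CPM in the control bleomycin mice, without overlap with the control PBS mice (log2 fold change 1.48, SE 0.75, edgeR adjusted p 0.377). It was the 1 of 25 pathway genes without overlap in that comparison, against 8.91% of all genes. Of 6 genes that activate Hgf or inhibit its activation, 4 passed and none had an unadjusted p under 0.05. The protease St14 ranged from 3.37 to 80.8 CPM over the libraries, and the inhibitors Spint1 and Spint2 from 9.79 to 187 and from 1.51 to 65.6 CPM.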

How the data were processed

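Libraries were stranded, paired-end and made from total RNA after removal of ribosomal RNA. According to the labels and the methods, the authors trimmed reads with Cutadapt, aligned them to GRCm38 with HISAT2 2.1.0 and assembled them with StringTie. The deposited values are estimated counts per gene in whole numbers, derived by the authors from StringTie coverage. Here, genes above 10 CPM in at least 2 libraries were kept (10481 of 55421), TMM factors computed, and 1 model over the 4 groups fitted with edgeR 4.0.16 (quasi-likelihood, R 4.3.3). P-values were adjusted over all genes kept by the Benjamini-Hochberg method. DESeq2 1.42.0 and limma 3.58.1 were alternatives, with other scalings, filters, covariates and each mouse left out. The scripts were tested on simulated data, with a pass limit set only for data of less spread than these. The biological coefficient of variation was 0.557. Libraries held 66540022 to 120554468 counts. The labels say that every group was divided over the sequencing sets but do not place each library, so column runs stood in. The number series was read from the mouse names. It cannot be the sequencing set, since all 4 control bleomycin mice were of series 12. Mice were numbered in accession order. The members and lists were chosen with earlier results of these data known. Named pathway genes passed the filter and reached a group mean of 10 CPM or an unadjusted p under 0.05. The genes most like Met are not reported here.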

Additional observations from a re-analysis of the deposited data

Results flagged for a closer look

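In a group of 4 or 5 mice, 1 value can stand far from the rest. On the log2 CPM scale this was tested for each of the 8 genes in each of the 4 groups (32 tests), and 2 passed Dixon's 95% criterion, where chance gives about 1 in 20. Fgf10 in control bleomycin mouse 2 was 5.17 CPM, and its gap to the next mouse took a share of 0.858 of the group's range in log2 CPM. Fgfr2 in CKO bleomycin mouse 4 was 2.69 CPM, the lowest of its group, with a share of 0.847. On the linear CPM scale 10 of the 32 passed, among them Fgf10 in control bleomycin mouse 2 (0.935) and Fgf2 in control PBS mouse 3 (0.917), and Fgfr2 in CKO bleomycin mouse 4 did not (0.742).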

How the results depend on the processing

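Each comparison was recomputed under 35 alternatives (34 for the interaction, to which a fit of only the groups compared gives no value). The number of members called changed only for CKO versus control after bleomycin, from 0 to 1 with DESeq2, 1 with DESeq2 and column runs, and 4 with voom quality weights. Log2 fold changes took the other sign as follows. With the fibroblast score as a covariate, bleomycin versus PBS in control mice gave -1.35 for Fgf2, -0.93 for Fgf7, -0.11 for Fgfr1 and -1.22 for Hgf, CKO versus control after bleomycin gave 0.98 for Fgf2, 2.01 for Fgf7, 0.027 for Fgfr1 and 0.090 for Fgfr2, and CKO versus control after PBS gave 0.27 for Fgf2. With the macrophage score, Fgfr2 was 0.16 for CKO versus control after bleomycin. With number series as a covariate, Hgf was -0.0811 for bleomycin versus PBS in control mice. In series 12 alone, Fgf7 was 0.23 for CKO versus control after bleomycin and the Met interaction was -0.46. When the libraries with a sex mismatch were left out, Hgf was -0.37 for bleomycin versus PBS in control mice and -0.58 for CKO versus control after bleomycin, and Fgf7 was -1.20 for bleomycin versus PBS in CKO mice. With limma voom, Fgf2 was 0.51 for CKO versus control after PBS. The cause was not tested. Leaving out each mouse in turn gave Fgf2 -4.51 to 1.13 for CKO versus control after PBS, and Hgf -0.38 to 1.46 for bleomycin versus PBS in control mice and -0.40 to 1.47 for CKO versus control after bleomycin. It gave Met 2.27 to 3.02 in the latter (edgeR adjusted p 0.131 to 0.483). Of the 12 other member values, 10 took the other sign under at least 1 alternative and 0 were called. The mean Fgf7 level of the control bleomycin mice was 28.6 CPM with raw library totals against 24.6 CPM with TMM. No paired analysis was possible because the labels carry no replicate numbers that pair mice across groups. The groups held 4 or 5 mice with a biological coefficient of variation of 0.557, and the part of depth in the lack of calls was not tested.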
